A study of Saccharomyces cerevisiae with 10 samples.

Results

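The middle and late sporulation genes followed here are 43 yeast genes of prospore membrane formation, spore wall synthesis and their control. They were chosen by name, and all 43 were found among the 6663 features of the deposited table. RNA was sequenced from 5 strains built in BY4741, a haploid laboratory yeast, on an Illumina HiSeq2000. These were the wild type, set1∆, which lacks SET1, set5∆, which lacks SET5, set1∆ set5∆, which lacks both, and SET5 Y402A, in which Set5 carries a substitution. All grew in rich YPD medium at 30 °C and were taken in mid-log phase, and no strain was placed in sporulation conditions, per the labels. The study's design names 2 biological replicates per strain (10 libraries), but the table gives 1 value per gene and strain. No difference below has a replicate check, and no test was run.

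Sporulation is the response of a diploid cell to starvation, in which meiosis is followed by packaging of the nuclei into spores. Its middle genes are switched on together by the transcription factor Ndt80, which binds the middle sporulation element in their promoters. In growing cells the same element is bound by the repressor Sum1, which acts with Rfm1 and the deacetylase Hst1. Middle genes then build the outer plaque of the spindle pole body, the prospore membrane that grows from it, and the layered spore wall of glucan, chitosan and dityrosine. Set1 methylates lysine 4 of histone H3. Set5 methylates lysines in the tail of histone H4.

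Values are FPKM, sequenced fragments scaled to transcript length and library size, and the sequencing depth behind them is unknown. In the wild type the 43 genes ranged from 0 to 78.6 FPKM with a median of 2.90, beside a median of 41.4 over all features, and 94.2% of all features stood above that member median. The targeted genes followed the labels, with SET1 at 0.0328 FPKM in set1∆ and 0.0324 in set1∆ set5∆ against at least 24.2 elsewhere. SET5 stood at 0.0545 FPKM in set5∆ and 0.0167 in set1∆ set5∆ against at least 34.6 elsewhere. Ratios are log2((FPKM + 1) / (reference FPKM + 1)), so a ratio between scarce transcripts comes out smaller than the plain one, and a 2-fold difference is a log2 ratio of 1. Of the 43 genes, 41 had a mean over the strains of at least 1 FPKM and were counted beside the 6541 features that met the same minimum, while CDA2 and OSW1 did not. A further 6 (SPR3, SPR28, SPO19, SPS22, SMA1 and PFS1) met it only through the strains without SET1, since their means over the strains with SET1 lay between 0.441 and 0.977 FPKM.

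Without SET1, many of the scarce sporulation genes stood higher and a few of the better expressed ones stood lower. The median level of the 43 genes was 5.58 FPKM in set1∆ and 5.64 in set1∆ set5∆, against 2.90 in the wild type, 2.71 in set5∆ and 3.17 in SET5 Y402A. For 30 of the 43 genes (69.8%) both strains without SET1 lay above all 3 strains with it, for 5 (11.6%) both lay below, and for 8 the strains overlapped. The same order was found in 31.3% of the 6541 features upward and in 31.4% downward. Among the 748 features with a mean of 1 to 10 FPKM, it was found upward in 51.6%, so scarce features in general often stood higher in these strains. The 30 genes hold SPR3, SPR28, SPO19, SPS22, SMA1 and PFS1, which met the minimum only through the strains without SET1. They also hold CDA2 and OSW1, which did not meet it. The order sets no minimum difference. CRR1 is thus among the 30, at 14.3 FPKM in the wild type, 14.9 in set1∆ and 14.5 in set1∆ set5∆. The 5 genes that were lower without SET1 were NDT80, SMK1, GAS2, SPR1 and SPR6. The 8 with overlapping strains were SPS2, SPO77, ADY4, OSW2, YSW1, DTR1, SPO73 and SMA2.

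**Figure D1:**
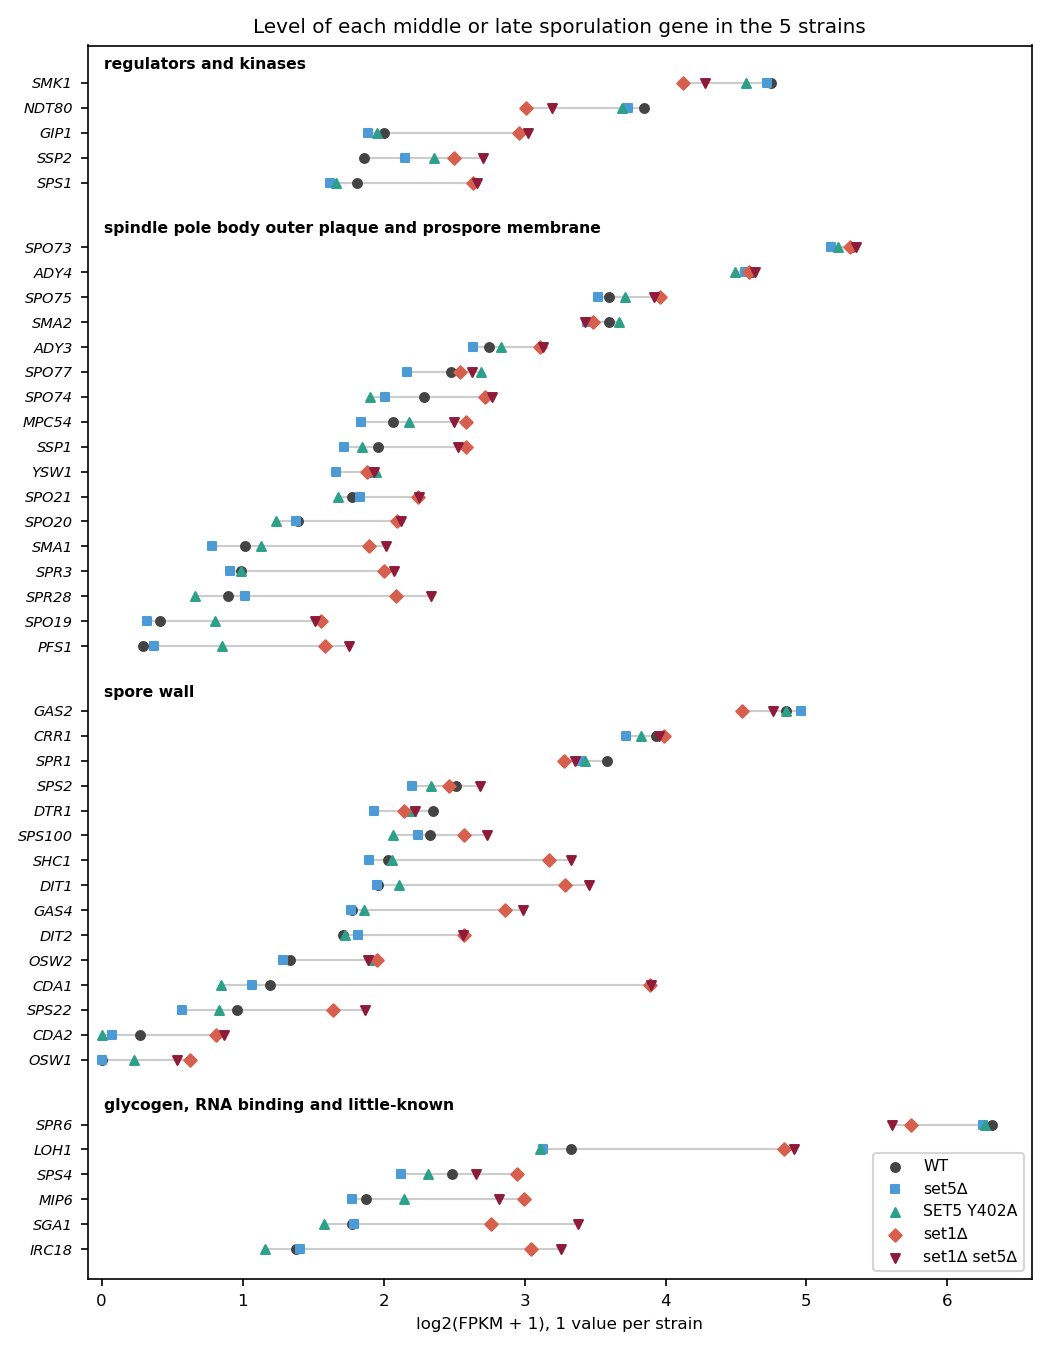
Level of each of the 43 genes as log2(FPKM + 1), with 1 marker per strain and a grey line over the range of the 5 strains, grouped by role and ordered by wild-type level within a group. The diamonds (set1∆) and downward triangles (set1∆ set5∆) lie to the right of the other markers for 30 genes, CDA1 the farthest, and to the left for 5, among them NDT80 and SMK1.

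In set1∆ against the wild type, 11 of the 41 genes were at least 2-fold higher and 0 were at least 2-fold lower. Among the 11 were 4 (SPR3, SPR28, SPO19 and PFS1) that met the minimum only through the strains without SET1. They thus had to be higher there on average, though not by 2-fold. Of the 6541 features, 2.37% passed 2-fold upward and 0.489% downward, and among the 748 scarce features, those averaging 1 to 10 FPKM, 11.9% did so upward. The RNA was read in bulk, so more cells with a transcript and more of it per cell cannot be told apart. The median log2 ratio of the 41 genes was 0.62, with 30 above 0 and 11 below, against a median of 0.00 over all features. Above 0 were 49.6% of all features and 71.7% of the scarce ones. For the 31 members with a mean of 1 to 10 FPKM the median was 0.70, against 0.26 for all 748 features in that range. The 31 hold all 6 genes that met the minimum only through the strains without SET1. The 10 members averaging 10 FPKM or more had a median of -0.07, which stood beside -0.02 for all 5793 such features. With a minimum on the wild-type value alone, at least 1 FPKM, the members' median was 0.46. Then 7 of 36 members were 2-fold higher, beside 1.65% of the 6477 features that met that minimum. With quantile-normalized columns 4 of 41 were, beside 1.5% of all features and 5.21% of the scarce ones, and the median was 0.13 instead of 0.62, with 27 above 0. All features then had a median of -0.03, and their share above 0 was not counted.

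The double deletion gave a like picture against the wild type. Here 12 of the 41 genes were at least 2-fold higher, beside 2.83% of all features and 13.6% of those with a mean of 1 to 10 FPKM, and 0 were lower, beside 0.520% of all features. SPR3, SPR28, SPO19 and PFS1, which met the minimum only through the strains without SET1, were again 4 of the 12. The median log2 ratio was 0.56, with 34 above 0, against 0.01 over all features. Of all features 50.6% lay above 0, and of the scarce ones 76.6%. Quantile normalization left 5 of 41 at least 2-fold higher, beside 1.83% of all features and 6.02% of the scarce ones, with 23 above 0 and a median of 0.07. The median over all features was then -0.03, and their share above 0 was not counted.

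**Figure D2:**
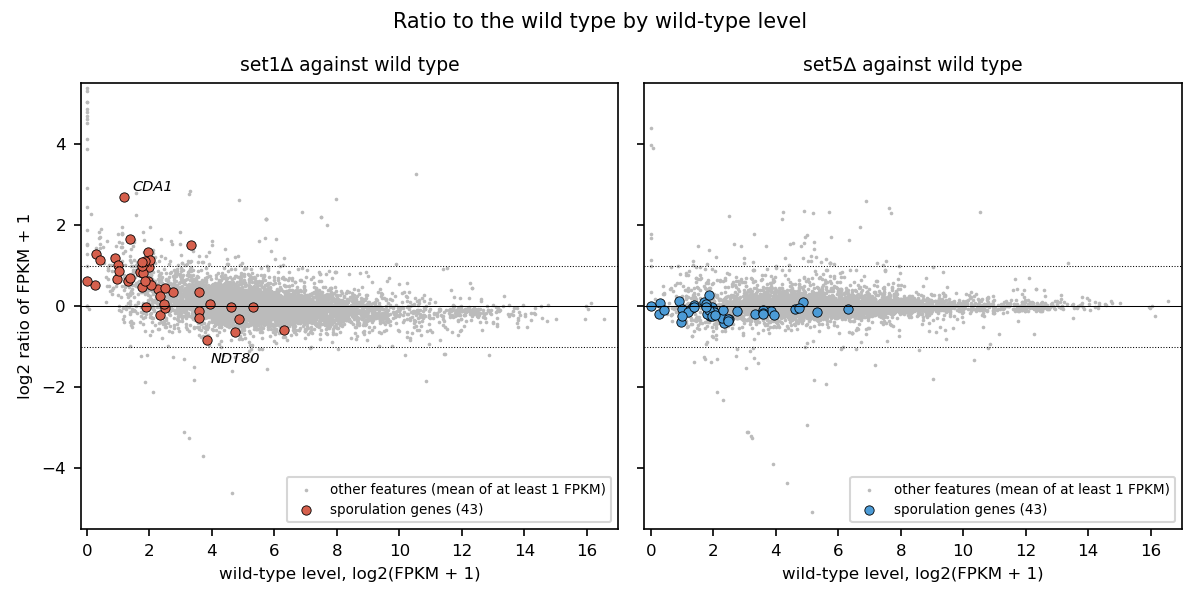
Log2 ratio to the wild type against wild-type level for set1∆ (left) and set5∆ (right), with the 43 sporulation genes as large points, other features averaging 1 FPKM or more as small grey points and dotted lines at 2-fold. In set1∆ 30 of the 33 members under 10 FPKM in the wild type lie above 0, and NDT80 lies lowest. Of the 842 features under that level that average 1 FPKM or more, 76.7% lie above 0. The grey cloud thus also tilts upward at its scarce end. In set5∆ no member passes a dotted line. The axes leave out 10 grey features on the left and 12 on the right.

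The control genes of the programme went in different directions. NDT80 (YHR124W), the activator of middle genes, stood at 13.4 FPKM in wild-type cells, 12.3 in set5∆, 11.9 in SET5 Y402A, 7.04 in set1∆ and 8.17 in set1∆ set5∆. Both strains without SET1 were thus lower, with log2 ratios of -0.84 and -0.65. SMK1 (YPR054W), the mitogen-activated protein kinase of spore wall assembly, stood at 25.9, 25.3 and 22.8 FPKM in the wild type, set5∆ and SET5 Y402A, against 16.4 in set1∆ and 18.4 in set1∆ set5∆. Its upstream neighbour YPR053C, 36 bases away on the opposite strand, was lower as well, at 133 FPKM in the wild type and 91.6 in set1∆. The library kit does not mark strand, so reads from close or overlapping genes cannot be told apart.

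SPS1 (YDR523C), a protein kinase needed for spore wall formation, went the other way from SMK1. It stood at 2.51 FPKM in wild-type cells, 2.07 in set5∆ and 2.16 in SET5 Y402A, and at 5.20 and 5.32 in set1∆ and set1∆ set5∆, just under 2-fold on the scale used (0.82 and 0.85). GIP1 (YBR045C), which directs the protein phosphatase Glc7 during sporulation, stood at 3, 2.71 and 2.87 FPKM in the strains with SET1, and at 6.77 in set1∆ and 7.13 in set1∆ set5∆. Its log2 ratios of 0.96 and 1.02 lay on either side of the 2-fold line, and both were 0.61 with quantile-normalized columns. SSP2, an activator of Smk1, had ratios of 0.64 and 0.84. It was also the member with the highest ratio in set5∆, at 0.29. Over these 5 control genes the median was 0.64 in set1∆ and 0.84 in set1∆ set5∆, with 0 and 1 past 2-fold upward. Over all features the shares were 2.37% and 2.83%, and over the scarce ones 11.9% and 13.6%.

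The largest difference of the list belonged to the spore wall. CDA1 (YLR307W), a chitin deacetylase that makes the chitosan of the wall, stood at 1.29 FPKM in wild-type cells, 1.09 in set5∆ and 0.798 in SET5 Y402A, against 13.8 in set1∆ and 13.9 in set1∆ set5∆. That is 10.7 times the wild-type value in each. Its log2 ratio of 2.69 in set1∆ was the highest of the 5614 protein-coding genes of at least 300 bp. Among all 6541 features that ratio ranked 25 from the highest. CDA2 (YLR308W), the second chitin deacetylase gene, which lies downstream on the same strand, was far scarcer. It stood at 0.209 FPKM in wild-type cells, 0.0514 in set5∆, 0.754 in set1∆ and 0.827 in set1∆ set5∆, and was listed at 0 in SET5 Y402A, where an exact 0 can be a failed estimate. Between the 2 genes lies DPA10 (YLR307C-A) on the opposite strand. DPA10 was listed at 0 in the wild type and stood at 1.22 FPKM in set5∆, 0.508 in SET5 Y402A, 16.6 in set1∆ and 22 in set1∆ set5∆. The gene on the other side of CDA1, UBC12, differed little, with 36.4 FPKM in the wild type and 33.1 in set1∆.

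The outermost layer of the wall is made of dityrosine. DIT1 (YDR403W), whose product starts dityrosine synthesis, stood at 2.89 FPKM in wild-type cells, 2.87 in set5∆ and 3.31 in SET5 Y402A, against 8.77 in set1∆ and 10 in set1∆ set5∆. DIT2 (YDR402C), the cytochrome P450 of the next step, is transcribed away from DIT1 across a gap of 898 bases. It stood at 2.28, 2.53 and 2.31 FPKM in the strains with SET1 and at 4.94 and 4.91 without it. Both genes thus separated the strains by SET1, DIT1 past 2-fold (1.33 and 1.5) and DIT2 below it (0.86 and 0.85). DTR1, the dityrosine precursor transporter, did not separate them, with 4.11 FPKM in the wild type, 3.42 in set1∆ and 3.66 in set1∆ set5∆.

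A second divergent pair was LOH1 (YJL038C) and IRC18 (YJL037W), also called OSW4 and OSW6 for their part in the outer spore wall, whose starts are 887 bases apart. LOH1 stood at 9.06 FPKM in wild-type cells, 7.77 in set5∆, 7.63 in SET5 Y402A, 27.6 in set1∆ and 29.1 in set1∆ set5∆. It averaged over 10 FPKM only through the strains without SET1. Of the 10 members at 10 FPKM or more in the wild type, 0 were 2-fold higher in set1∆ or set1∆ set5∆, beside 0.632% and 0.860% of the 5699 such features. With quantile-normalized columns LOH1 had ratios of 1.39 and 1.45. IRC18 stood at 1.6, 1.65 and 1.23 FPKM with SET1 and at 7.26 and 8.57 without it. Their log2 ratios to the wild type were 1.51 and 1.67 in set1∆, and 1.58 and 1.88 in set1∆ set5∆.

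The promoters of these 4 genes are shown because they had the highest ratios in set1∆ of all members and because the middle sporulation element is the site through which this class of genes is controlled. Each window runs from 250 bases before the start codon to 50 bases into the gene in RefSeq's R64 assembly, 5′ to 3′ on the gene's own strand. The build behind the table, not given in the sources used here, may be another. Capitals mark the core of the element, CACAAA or CGCAAA, on either strand, so TTTGTG is a match on the other strand.
CDA1 chrXII:745370-745669, plus strand: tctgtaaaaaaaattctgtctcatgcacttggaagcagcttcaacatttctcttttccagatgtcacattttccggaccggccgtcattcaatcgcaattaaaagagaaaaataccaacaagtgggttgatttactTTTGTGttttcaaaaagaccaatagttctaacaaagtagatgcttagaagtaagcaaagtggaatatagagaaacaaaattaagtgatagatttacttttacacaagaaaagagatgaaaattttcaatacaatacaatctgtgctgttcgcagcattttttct
IRC18 chrX:376412-376711, plus strand: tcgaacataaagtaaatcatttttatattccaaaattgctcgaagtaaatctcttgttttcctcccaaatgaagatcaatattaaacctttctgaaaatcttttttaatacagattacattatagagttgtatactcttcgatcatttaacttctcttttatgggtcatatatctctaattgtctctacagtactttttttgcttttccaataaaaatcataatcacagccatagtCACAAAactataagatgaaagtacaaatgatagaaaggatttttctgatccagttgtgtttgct
LOH1 chrX:375725-376024, minus strand: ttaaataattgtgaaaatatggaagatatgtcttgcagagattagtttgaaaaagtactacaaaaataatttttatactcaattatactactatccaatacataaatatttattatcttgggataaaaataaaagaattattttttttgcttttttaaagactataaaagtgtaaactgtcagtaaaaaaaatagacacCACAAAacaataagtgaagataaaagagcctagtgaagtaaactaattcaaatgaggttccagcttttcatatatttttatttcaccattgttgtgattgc
DIT1 chrIV:1274352-1274651, plus strand: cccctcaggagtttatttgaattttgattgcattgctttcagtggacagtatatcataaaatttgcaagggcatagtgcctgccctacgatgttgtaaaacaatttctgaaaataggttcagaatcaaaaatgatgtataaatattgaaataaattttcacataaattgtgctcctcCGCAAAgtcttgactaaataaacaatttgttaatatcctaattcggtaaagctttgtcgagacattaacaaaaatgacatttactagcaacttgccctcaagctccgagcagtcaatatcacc

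Such a core was found in the windows of 38 of the 43 genes (88.4%), against 29.0% of the 5915 protein-coding genes of the table. The longer form of the element, GNCACAAA or GNCGCAAA on either strand, which contains the core, was found in 24 of 43 (55.8%) against 7.05%. IRC18 holds the longer form, and CDA1, LOH1 and DIT1 hold the core alone. Matches were found in members that stood higher and in members that stood lower. NDT80 holds 2 longer forms and stood lower without SET1, SMK1 holds 1 and also stood lower, and no core was found in the windows of SHC1, DIT2, OSW1, SPS100 or SPR6. Members with the longer form had a median log2 ratio of 0.46 in set1∆ (24 genes) and those without it 0.70 (19 genes). Outside the list, among genes with a mean of 1 to 10 FPKM, the 56 with the longer form had a median of 0.54 and the 470 without it 0.23, and 17.9% and 9.79% of them were at least 2-fold higher. These shares describe letters in a window, were compared after the values were seen, and were not tested.

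**Figure D3:**
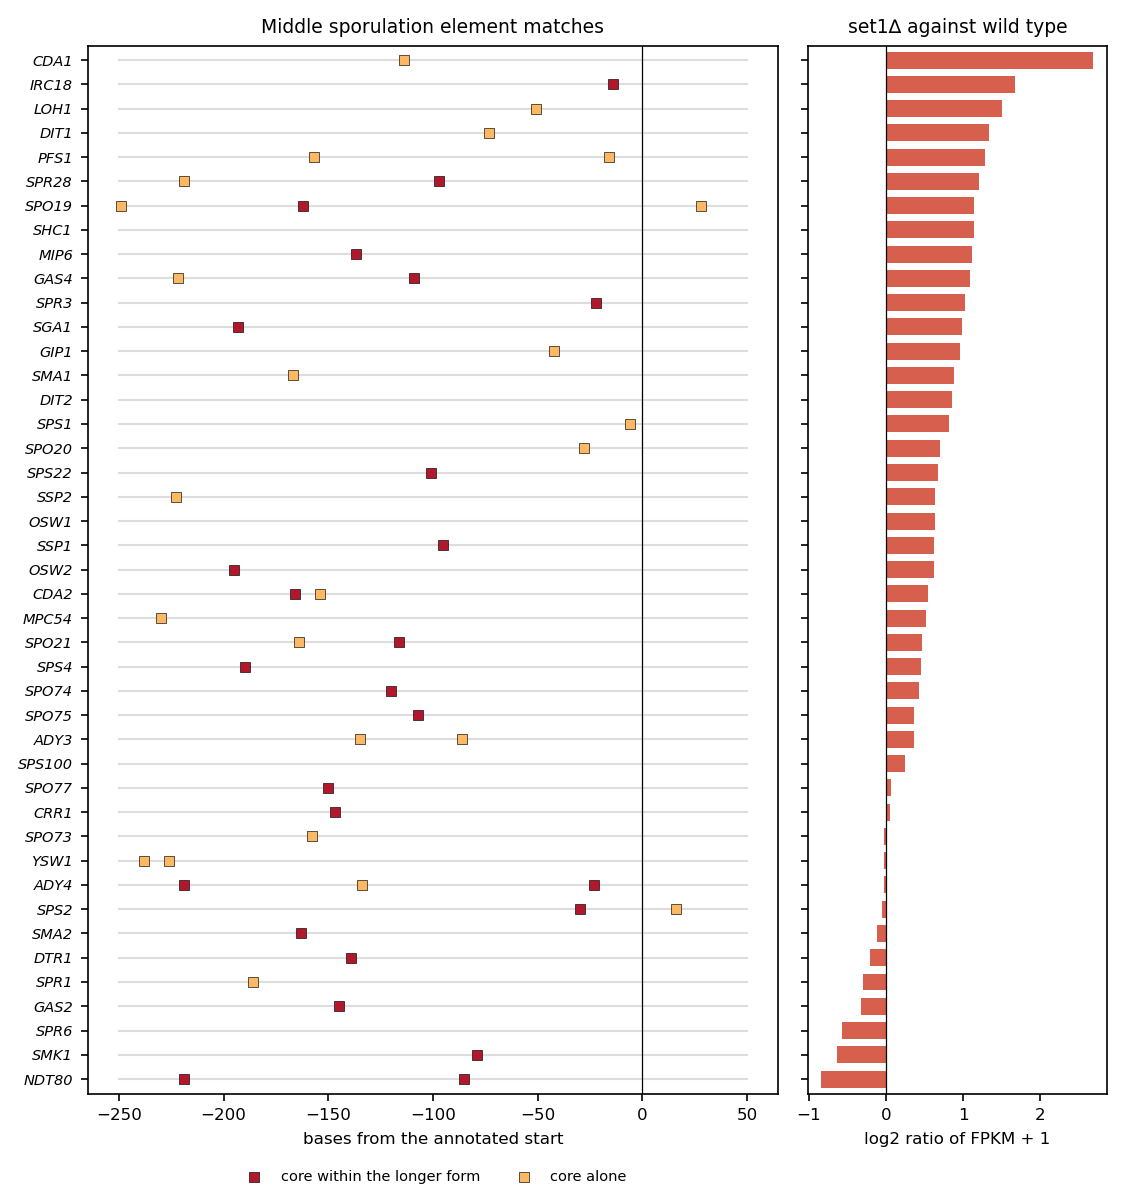
Matches to the middle sporulation element in the window of each of the 43 genes (left; the position is that of the match's leftmost base from the annotated start) beside the log2 ratio in set1∆ against the wild type (right), ordered by that ratio. Dark squares mark the longer form and light squares the core alone. Windows at the top and at the bottom of the order hold matches alike, CDA1 with 1 core and NDT80 with 2 longer forms.

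Other spore wall genes were split. SHC1 (YER096W), the sporulation form of the chitin synthase activator, stood at 3.09 FPKM in wild-type cells, 2.72 in set5∆ and 3.17 in SET5 Y402A, and at 8.04 and 9.05 in set1∆ and set1∆ set5∆. GAS4 (YOL132W), a glucan-elongating enzyme of the wall, stood at 2.42, 2.40 and 2.64 FPKM with SET1 and at 6.26 and 6.93 without it. Both were past 2-fold in both strains without SET1, but not with quantile-normalized columns, where SHC1 had ratios of 0.83 and 0.95 and GAS4 of 0.71 and 0.79. GAS2 (YLR343W), the companion enzyme of GAS4, was better expressed and lay slightly lower without SET1, at 28, 30.1 and 27.9 FPKM with SET1 and at 22.3 and 26.1 without it. CRR1 (YLR213C), the gene of a putative wall glycosidase, stood between 12.2 and 14.9 FPKM in all 5 strains. OSW1 (YOR255W), of the outer wall, was listed at 0 in the wild type and set5∆ and stood at 0.173 FPKM in SET5 Y402A, 0.544 in set1∆ and 0.448 in set1∆ set5∆. Of the 13 spore wall genes averaging 1 FPKM or more, 4 were at least 2-fold higher in set1∆ and 4 in set1∆ set5∆, with medians of 0.62 and 0.56. Over all features the shares past 2-fold were 2.37% and 2.83%, and over the scarce ones 11.9% and 13.6%.

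Of the 17 genes of the outer plaque and the prospore membrane, 4 were at least 2-fold higher in set1∆ and 4 in set1∆ set5∆, with a median of 0.47 in both. Over all features the shares were 2.37% and 2.83%, and over the scarce ones 11.9% and 13.6%. The 4 genes met the minimum mean only through the strains without SET1. The minimum thus required them to be higher there on average, though not by 2-fold. SMA1 met it in the same way and had a ratio of 0.88 in set1∆. Of the other 13 genes of the group, SMA1 among them, 0 were past 2-fold. The septin genes SPR3 (YGR059W) and SPR28 (YDR218C), whose products line the prospore membrane, were among the 4. SPR3 stood at 0.982 FPKM in wild-type cells, 0.881 in set5∆ and 0.985 in SET5 Y402A, against 3.01 in set1∆ and 3.21 in set1∆ set5∆. SPR28 stood at 0.857, 1.02 and 0.579 FPKM in the strains with SET1, and at 3.26 and 4.06 in those without. The vegetative septin genes CDC3, CDC10, CDC11, CDC12 and SHS1 stood between 66.0 and 169 FPKM in the wild type, and their log2 ratios in set1∆ lay between -0.10 and 0.12.

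The other members of this group past 2-fold were the scarcest. PFS1 (YHR185C), which places the prospore membrane at the spindle poles, stood at 0.227 FPKM in wild-type cells, 0.293 in set5∆, 0.804 in SET5 Y402A, 2 in set1∆ and 2.38 in set1∆ set5∆. It lies tail to tail with SSP1, a member of the leading edge coat, with 167 bases between them. SPO19 (YPL130W), a membrane-anchored protein gene, stood at 0.33, 0.25 and 0.743 FPKM with SET1 and at 1.94 and 1.85 without it. With quantile-normalized columns all 4 of these genes were within 2-fold in both strains, between 0.38 and 0.68 in set1∆. Better expressed members of the group differed little. SPO73 (YER046W), which acts in membrane extension, stood between 35.1 and 39.9 FPKM in the 5 strains, ADY4 (YLR227C), of the outer plaque, between 21.5 and 23.9, and SMA2 (YML066C), of membrane assembly, between 9.77 and 11.7. SPO75 (YLL005C), which like SPO73 is needed for spore formation, stood at 11.1, 10.5 and 12.1 FPKM with SET1 and at 14.6 and 14.1 without it.

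Of the 6 members that serve glycogen, RNA binding or little-known functions, among them LOH1 and IRC18, 3 were at least 2-fold higher in set1∆ and 3 in set1∆ set5∆. Over all features the shares were 2.37% and 2.83%, and over the scarce ones 11.9% and 13.6%. The medians of the 6 were 1.05 and 1.26. SGA1 (YIL099W) differed most between both strains without SET1. This glucoamylase gene, which serves glycogen breakdown in sporulation, stood at 2.42 FPKM in wild-type cells, 2.45 in set5∆ and 1.98 in SET5 Y402A, at 5.77 in set1∆ and at 9.39 in set1∆ set5∆. MIP6 (YHR015W), an RNA-binding protein gene, stood at 2.67, 2.42 and 3.42 FPKM with SET1 and at 6.96 and 6.06 without it, and its 2-fold ratio in set1∆ (1.12) was 0.78 with quantile-normalized columns. SPS4 (YOR313C), an abundant transcript of sporulating cells, stood at 4.61 FPKM in wild-type cells, 3.36 in set5∆, 3.98 in SET5 Y402A, 6.69 in set1∆ and 5.29 in set1∆ set5∆, and its ratio of 0.16 in the last was -0.28 after quantile normalization. SPR6 (YER115C), of unknown function, was the most abundant member and was lower without SET1, at 78.6, 75.2 and 75.9 FPKM against 52.5 and 47.8. Its neighbours SLX8 and BOI2 did not share that difference, with log2 ratios in set1∆ of 0.36 and -0.10.

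The 16 members outside the rule for naming lay between 0.948 and 11.0 FPKM in the wild type with a median of 3.04, and between 2.12 and 8.73 in set1∆ with a median of 4.60. Their log2 ratios in set1∆ ran from -0.30 for SPR1, an exoglucanase gene of the spore wall, to 0.88 for SMA1, of prospore membrane assembly. SMA1 was the member closest to 2-fold from below in the double deletion, where its ratio rounds to 1, and GIP1 (1.02) was the closest from above.

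In the strains altered in SET5 alone, members stayed within 2-fold of the wild type. In set5∆ 0 of 41 genes were at least 2-fold higher and 0 lower, beside 0.994% and 0.581% of all features. The log2 ratios ran from -0.42 for DTR1 to 0.29 for SSP2, with 33 below 0, 8 above, and a median of -0.11 against 0.00 over all features. Of all features 50.1% lay above 0, and of the scarce ones, whose median was -0.02, 45.7% did. In SET5 Y402A 0 of 41 were higher and 0 lower, beside 1.83% and 0.321% of all features, with a median of -0.10. The highest ratio there was that of OSW2, an outer spore wall gene, at 0.59. OSW2 stood at 1.52 FPKM in wild-type cells, 1.44 in set5∆, 2.79 in SET5 Y402A, 2.87 in set1∆ and 2.71 in set1∆ set5∆, so SET5 Y402A lay between both strains without SET1. With quantile-normalized columns its ratio in set1∆ set5∆ was -0.02 instead of 0.56. PFS1 (0.56) and SSP2 (0.49) followed it.

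Loss of SET5 in a strain that already lacked SET1 was seen by setting set1∆ set5∆ against set1∆. Again 0 of 41 genes were at least 2-fold higher and 0 lower, beside 0.566% and 0.352% of all features. The median was 0.07 with 30 above 0 and 11 below. All features had a median of 0.00, and the scarce ones, averaging 1 to 10 FPKM, had 0.06 with 63.2% above 0. With quantile-normalized columns the members' median was 0.00. The lowest ratio was that of SPS4 (-0.29) and the highest that of SGA1 (0.62).

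Loss of SET1 could be read from a second pair of strains, set1∆ set5∆ against set5∆, which shares no column with set1∆ against the wild type. This comparison was added after the values were seen. Of the 41 genes, 16 were at least 2-fold higher, beside 2.86% of all features and 16.3% of the scarce ones, and 0 were lower, beside 1.07%. The 16 hold all 6 genes that met the minimum only through the strains without SET1, and 10 of the other 35. With quantile-normalized columns 6 of 41 were 2-fold higher, beside 1.68% of all features and 5.48% of the scarce ones, and the median was 0.17 instead of 0.66. The 11 genes that were 2-fold higher in set1∆ against the wild type were all among the 16 (68.8% of these). Of all features 96 passed 2-fold in both, 61.9% of the 155 of set1∆ and 51.3% of the 187 of the second pair. Of the scarce features 69 did, 77.5% of 89 and 56.6% of 122. Over all 43 genes, 32 were above 0 in both pairs, 6 were below 0 in both and 5 differed in sign. The share above 0 in both was 74.4%, against 64.3% of the scarce features and 39.5% of all. Pearson's r across the 43 genes was 0.97, against 0.60 across the 748 features with a mean of 1 to 10 FPKM and 0.40 across the 6541. These are correlations across genes within strain values of 1 study, and genes are not independent replicates. CDA1 had the highest ratio of the members in both pairs (2.69 and 2.83), and NDT80 (-0.84 and -0.54), SMK1 (-0.63 and -0.44) and SPR6 (-0.57 and -0.64) the 3 lowest.

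**Figure D4:**
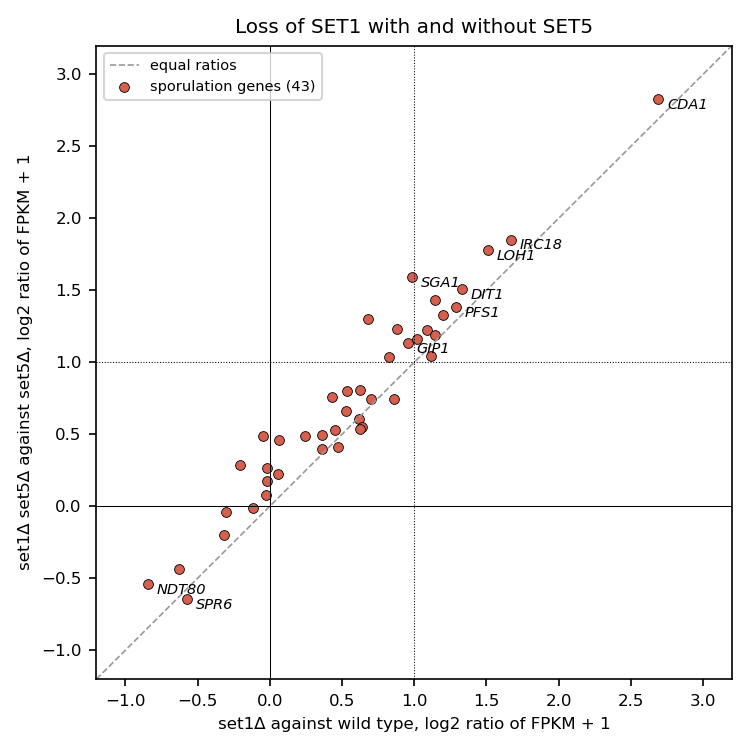
Log2 ratio of each of the 43 genes in set1∆ against the wild type (x axis) and in set1∆ set5∆ against set5∆ (y axis), 4 different columns of the table, with dotted lines at 2-fold and a dashed line at equal ratios. The points lie along the dashed line from NDT80 and SPR6 at the lower left to CDA1 at 2.69 and 2.83, and SGA1 lies above it.

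Genes outside the list were read in groups by function. In set1∆ 2.37% of all features passed 2-fold upward, 0.489% downward, and 11.9% of the scarce ones upward. Above 0 were 49.6% of all features and 71.7% of the scarce ones. Of 19 other middle and late sporulation genes, 3 were at least 2-fold higher in set1∆ and 0 lower, with 13 above 0 and a median of 0.25. They were LDS1, a lipid droplet protein of spore wall formation, PES4, a relative of MIP6, and LDS2. LDS1 stood at 0.0990 FPKM in the wild type against 4.36 in set1∆ and 3.67 in set1∆ set5∆. PES4 stood at 0.371 against 4.13 and 3.53, and LDS2 at 3.07 against 7.71 and 8.97. LDS1 and PES4 met the minimum mean only through the strains without SET1. Early meiotic genes, which precede the middle class, had a median of 0.12 in set1∆ over 19 genes, with 0 of them past 2-fold, and one of 0.22 in set1∆ set5∆, with HED1 (1.05), an inhibitor of recombination, past 2-fold. HED1 stood at 1.45 FPKM in the wild type and at 4.09 in set1∆ set5∆. In that strain 2.83% of all features and 13.6% of the scarce ones passed 2-fold upward. In SET5 Y402A 1 early gene, SAE3, which aids strand exchange in recombination, was lower (-1.02), at 1.03 FPKM against 3.11 in the wild type. Of all features 0.321% passed 2-fold downward there.

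The genes listed as regulators of the middle genes stayed within 2-fold of the wild type in all 4 mutants on the scale used. SUM1, the repressor of middle genes in growing cells, stood at 37.0 FPKM in wild-type cells, 38.8 in set5∆, 38.4 in SET5 Y402A, 31.4 in set1∆ and 30.3 in set1∆ set5∆. HST1 stood between 73.6 and 80.5 FPKM and RFM1 between 15.6 and 19.1 in the 5 strains. IME1, the master activator of meiosis, was at 16.7 FPKM in the wild type, 13.5 in set1∆ and 13.8 in set1∆ set5∆. IME2, the kinase gene it activates, was at 3.79 FPKM in the wild type and highest in SET5 Y402A, at 7.39, and UME6, which binds the promoters of early genes, stood between 23.0 and 26.9. Over the 16 listed the median was -0.04 in set1∆, with 0 past 2-fold. The highest ratio (0.87) was that of AMA1, a meiotic activator of the anaphase-promoting complex. It stood at 0.737 FPKM in the wild type and at 2.17 in set1∆ and in set1∆ set5∆. AMA1 is also on the list of other middle genes, and IME2 on the early list.

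The vegetative relatives of the members stood between 16.7 and 1547 FPKM in the wild type. Over 21 genes the median was 0.08 in set1∆ and 0.07 in set1∆ set5∆, with 0 past 2-fold in either. SKT5, the growth form of SHC1, stood at 49.2 FPKM in the wild type and 52.5 in set1∆, and GAS1, the main enzyme of the GAS4 family, at 1414 and 1067.

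**Figure D5:**
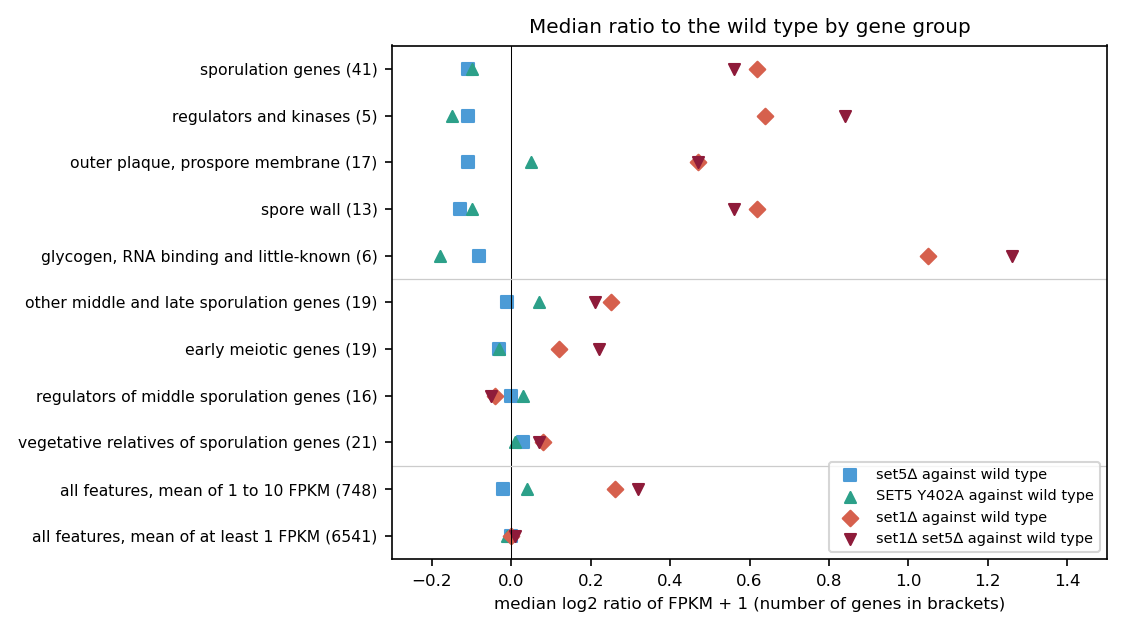
Median log2 ratio to the wild type of the sporulation genes averaging 1 FPKM or more, of their 4 role groups, of 4 other gene groups and of all features, with 1 marker per mutant strain and the number of genes in brackets. The set1∆ and set1∆ set5∆ markers of the sporulation genes lie at 0.62 and 0.56, those of all features with a mean of 1 to 10 FPKM at 0.26 and 0.32, and the set5∆ and SET5 Y402A markers lie between -0.18 and 0.07 in each row.

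Because strand is not marked, the nearest annotated neighbours of each member were read as well. The 65 neighbours outside the list with a value had a median of 0.00 in set1∆. Of these, 3 were at least 2-fold higher and 0 lower, beside 2.37% and 0.489% of all features. They were DPA10 beside CDA1, YCL048W-A upstream of SPS22, at 5.42 FPKM in the wild type and 18.6 in set1∆, and YOL131W downstream of GAS4, at 1.31 and 4.96. Their part in the values of CDA1, SPS22 and GAS4 was not tested. SPS100, a spore wall gene, overlaps the noncoding transcript SUT169 on the opposite strand and was the only member that overlaps an annotated gene. Each member's coding sequence was unique in the R64 genome over 100% of its stretches of 50 bases.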

How the data were processed

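RNA of 5 strains was deposited as 1 table with 1 column per strain. Its header gives column names without a unit. The deposited values were taken as the authors' FPKM because they are decimals that are never negative, their columns sum to between 2056298 and 2426410, and Cufflinks is among the tools named. Per the submitters' processing notes, the tools included R 2.15.1, Cuffdiff, Cufflinks 2.0.2, TopHat2 2.0.5 and FastQC, with no role named. How strains were scaled, how replicates were combined, and which build and annotation served are points not given in the sources used here. Libraries were made with an Illumina TruSeq RNA v2 kit, per the labels' protocols, which does not mark strand. Depth is unknown: only 2 features were above 0 and under 0.3 FPKM in all strains, too few to read the worth of 1 read. An exact 0 was found in at least 1 strain for 117 features and is reported only as listed at 0.

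Ratios used a pseudocount of 1 FPKM and a mean of at least 1 FPKM (6541 of 6663 features). With 1 value per strain there was no test. Names, neighbours, windows and lengths came from RefSeq R64, matched by locus tag for 43 of 43 members. The members, gene lists and comparisons were chosen with earlier results of these data known. Values are given strain by strain for 27 members: those at least 2-fold from the wild type in a mutant, those with a mean of at least 10 FPKM, those listed at 0, and 8 set by name. SSP2, DTR1, OSW2, SMA1, SPR1 and the genes singled out of other groups or neighbours were named after their values were seen. Counting was checked on simulated data. Python 3.11.15, pandas 2.3.3, numpy 2.4.6 and matplotlib 3.10.9 were used. The table had 0 unused columns.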

Additional observations from a re-analysis of the deposited data

Results flagged for a closer look

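Loss of SET5 went with opposite signs of the members' median log2 ratio in both backgrounds. With SET1 present (set5∆ against the wild type) it was -0.11, and with SET1 absent (set1∆ set5∆ against set1∆) it was 0.07. These pairs share no column. In all, 23 of 41 members (56.1%) were below 0 in the first and above 0 in the second, against 26.4% of all 6541 features and 34.0% of the 748 that average 1 to 10 FPKM, whose medians were -0.02 and 0.06. With quantile-normalized columns the members' second median was 0.00, which removes the opposite sign. There 13 of 41 (31.7%) showed the pattern, beside 29.5% of all features and 25.1% of those that average 1 to 10 FPKM. No member passed 2-fold in either, and the difference was not tested.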

How the results depend on the processing

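No paired analysis was possible because the table gives 1 value per strain, and leaving out replicates or a count test could not be run for the same reason. Dividing each column by its median, or dropping the minimum on the mean, kept every member count within 1.5 times and every median within 0.1 of the value reported. A pseudocount of 0.1 FPKM gave 17 members at least 2-fold higher in set1∆ with a median of 0.77, a median of 0.70 in set1∆ set5∆ and 0.87 in set1∆ set5∆ against set5∆, and 1 member, PFS1 (1.47), higher in SET5 Y402A. Shares over features were not counted at that pseudocount, and a smaller pseudocount enlarges ratios between scarce transcripts in general. A minimum mean of 10 FPKM left 10 members, with medians of -0.07, -0.04 and 0.03 in set1∆, in set1∆ set5∆ and in set1∆ set5∆ against set5∆. In each of these 3 comparisons 1 member was at least 2-fold higher, beside 66, 83 and 65 of the 5793 such features. The 1 is LOH1, which averages 10 FPKM only through the strains without SET1. With a minimum of 10 FPKM in the wild type, also added after the values were seen, it is 0 of 10 in each. The members' median in set1∆ was then -0.21, against -0.03 for all 5699 such features. The minimum mean of 10 FPKM reversed the sign of the members' median in set1∆ and in set1∆ set5∆, and it removes the scarce members by construction. Quantile-normalized columns gave 4, 5 and 6 members higher, which in set1∆ were CDA1, IRC18, LOH1 and DIT1, with medians of 0.13, 0.07 and 0.17, 1 member lower in set1∆, which was NDT80 (-1.03), and a median of 0.00 in set1∆ set5∆ against set1∆. A minimum of 1 FPKM on the wild-type value, added after the values were seen, left 36 members, with 7 higher in set1∆ and medians of 0.46, 0.46 and 0.54. Depth is unknown, and with no replicate values no count or median here has an error.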
